A study of Mus musculus with 2 samples.

Results

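The genes of interleukin-4 and interleukin-13, of the receptor chains that bind them and of the arginases, which split arginine, were measured in eosinophils of the healthy mouse colon. The set holds 7 genes, found by symbol in the deposited table: the cytokine genes Il4 and Il13, the receptor chain genes Il4ra, Il13ra1 and Il2rg, and the arginase genes Arg1 and Arg2. They have 8 rows among the 31295 transcripts of the table, and 1 row per gene, the one with the most reads, was kept among 23456 genes in all. The eosinophils, granulocytes that live in the gut wall, came from colons of naive, untreated wild-type C57BL6 mice that were digested with enzymes before the flow cytometric sort. The series holds 1 group of 2 samples, each made into 3 technical libraries by CEL-Seq, a method that sequences the 3′ ends of messenger RNA. The labels leave out the sort gate, the age and number of the mice and whether animals were pooled.

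Interleukin-4 and interleukin-13 are the signature cytokines of type 2 immunity, the response to worms and allergens, and eosinophils are a known source of interleukin-4. Interleukin-4 first binds the chain encoded by Il4ra. That pair then recruits either the common gamma chain encoded by Il2rg, which forms the type I receptor of blood cells, or the chain encoded by Il13ra1, which forms the type II receptor that interleukin-13 also uses. Both receptors act through Janus kinases and the transcription factor STAT6. Arginase-1, a cytosolic enzyme, and arginase-2, a mitochondrial one, split arginine into ornithine and urea, and Arg1 is a classical STAT6 target in mouse macrophages.

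The reads of Il4 were placed on the transcript that starts inside the gene, so the sequences before both Il4 starts are shown with that of Il13. Each is the 250 bases before a RefSeq transcript start on GRCm38, minus strand, written 5′ to 3′. Capitals mark matches, on either strand, to any of 4 elements. The STAT6-type element was searched as TTCNNNNGAA, and the core bound by nuclear factors of activated T cells as TGGAAA. The element of GATA factors was searched as AGATAA, and the TATA box of core promoters as TATAAA.
Il4 coding start, chr11:53618666-53618915: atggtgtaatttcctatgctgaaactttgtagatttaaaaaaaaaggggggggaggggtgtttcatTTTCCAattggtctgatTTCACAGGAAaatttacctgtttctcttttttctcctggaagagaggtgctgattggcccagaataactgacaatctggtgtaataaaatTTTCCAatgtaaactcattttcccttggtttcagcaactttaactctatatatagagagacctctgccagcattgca
Il4 inner start, chr11:53617339-53617588: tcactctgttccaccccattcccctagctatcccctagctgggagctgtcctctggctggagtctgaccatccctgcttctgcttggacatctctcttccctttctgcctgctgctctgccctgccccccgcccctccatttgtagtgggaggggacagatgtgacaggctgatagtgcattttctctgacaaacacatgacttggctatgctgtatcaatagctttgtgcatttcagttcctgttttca
Il13 start, chr11:53634703-53634952: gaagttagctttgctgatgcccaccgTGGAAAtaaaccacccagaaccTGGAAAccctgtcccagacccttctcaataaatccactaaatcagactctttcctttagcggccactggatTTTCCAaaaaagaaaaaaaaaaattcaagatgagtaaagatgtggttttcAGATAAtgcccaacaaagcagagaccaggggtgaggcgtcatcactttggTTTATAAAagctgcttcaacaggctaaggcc

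The window of the coding Il4 start held 1 STAT6-type match, beginning 167 bases before the start, and 2 cores for nuclear factors of activated T cells, at 184 and 77 bases before it. The Il13 window held 3 such cores, 1 GATA element and 2 overlapping matches to the TATA box, 1 on each strand, at 31 and 29 bases before the start. Only exact letters were counted, so the stretch tatatata in the coding Il4 window was not a match to the TATA box. The inner Il4 window held none of the 4 elements. Among 32851 windows of this length in the RefSeq table, 5.85% held the STAT6-type element, 18.6% the core for nuclear factors of activated T cells, 9.99% the GATA element and 12.4% the TATA box. Both cytokine starts lay in windows poor in CpG, with 0 at the coding Il4 start and 3 at Il13, where the median window held 6. The windows of Il4ra and Il13ra1 held 17 and 21 CpG with none of the 4 elements, and that of Il2rg held 3 CpG and 1 core for nuclear factors of activated T cells. A match is a description of letters and not a bound site, and binding was not measured here. Arg1 and Arg2 have no entry in the promoter table.

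For each transcript the table holds a single read total and a single RPKM, both means over the whole group, and values per sample were not analysed here. RPKM is reads per kilobase of transcript per 1000000 reads. A spread between samples is therefore not given. Values in parentheses are exact 95% Poisson intervals of the reads summed over the 6 libraries. They cover counting error only, with each read taken as independent, so amplified copies among the reads would make them too narrow. On RPKM they are approximate, because RPKM is a mean over libraries whose depths are not given, and it need not follow the summed reads over length. The lengths and read totals behind the deposited RPKM are not given either. The genes held 7692387 reads over the 6 libraries. RPM, reads per 1000000 reads on genes, leaves out transcript length, to which a 3′ tag is not proportional. In sorted bulk samples, fewer cells of a type and less RNA per cell cannot be told apart.

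All 7 genes had reads, as did 69.1% of all genes, and 5 of 7 reached an RPKM of 1, as did 31.0% of all genes. The receptor chains Il2rg and Il4ra were the highest, the cytokines and Arg1 lay between an RPKM of 1 and 4, and Il13ra1 and Arg2 were below 1. The median of the 7 genes was the RPKM of Arg1, 1.92, beside 0.186 over all genes. By RPM, 6 of 7 genes reached 1, as did 50.9% of all genes.

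**Figure D1:**
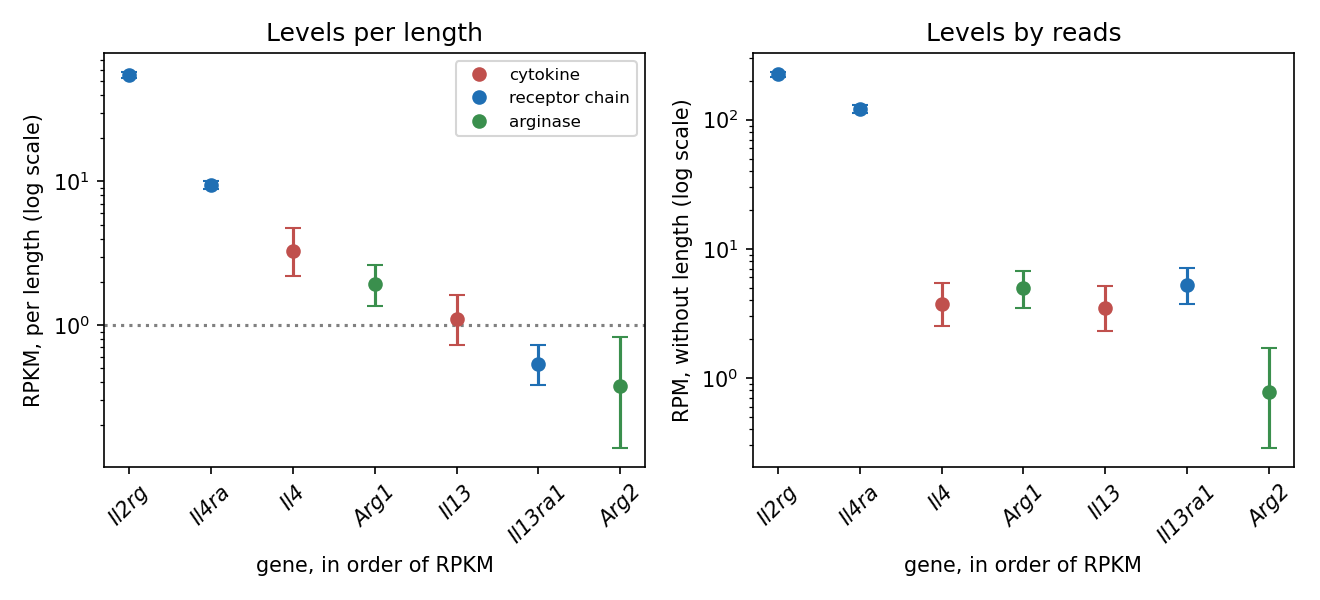
Levels of the 7 genes as RPKM (left) and RPM (right), both on log axes, with points for the authors' mean over the group and bars for 95% Poisson intervals of the reads; the dotted line marks an RPKM of 1. Il2rg and Il4ra stand above the others on both scales, while Il4, Il13, Arg1 and Il13ra1 are spread by RPKM and lie between 3.51 and 5.20 by RPM.

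Il4 had 29 reads over the 6 libraries, an RPKM of 3.28 (2.20 to 4.71) and an RPM of 3.77 (2.52 to 5.41). It ranked 4215 of 23456 genes by RPKM. Il13 had 27 reads, an RPKM of 1.11 (0.730 to 1.61) and an RPM of 3.51 (2.31 to 5.11), and ranked 6998 by RPKM. Per length the level of Il4 was 2.96 times that of Il13 (1.69 to 5.20), whereas by reads the ratio was 1.07 (0.614 to 1.89). With the summed reads divided by the GENCODE M21 models of 605 and 1205 bases, the ratio was 2.14 (1.22 to 3.76), so part of the gap to 2.96 is not from these lengths. The 2 cytokines differed beyond counting error on both scales with length and not by reads.

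Both Il4 rows share the 3′ end at position 53612461 of chromosome 11 in mm10, on the minus strand. The row of the coding transcript (NM_021283), which runs to 53618665, was listed at 0, and all 29 reads stood on the RefSeq non-coding row (NR_027491), which runs to 53617338. In GENCODE M21 the coding transcript has 4 exons. The other has 3, with a first exon of its own at 53617081 to 53617338, inside the second intron of the coding form, and is annotated there as coding. The last 347 bases of both transcripts are identical, and they take in the last 2 exons of each. A tag from that stretch does not tell the forms apart. Of 1947 pairs of rows in the table that share a 3′ end and have reads, 54.2% had all reads on 1 row and 34.3% had the same number on both, so the row does not show which Il4 transcript was made.

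The other listed cytokines, which take in genes such as Il6 and Il10 beside those of type 2 immunity, were lower. None of the 11 listed genes reached an RPKM of 1, against 31.0% of all genes. Of the 11, 5 were listed at 0, and the median of the list was 0.0208. Il6, an inflammatory cytokine, was the highest at 0.747, followed by the regulatory Il10 at 0.230 and the epithelial alarm cytokine Tslp at 0.169. Il5, the eosinophil growth factor, had 0.0954 (0.0197 to 0.279) from 3 reads. The RPKM of Il4 was 34.4 times that of Il5 (10.7 to 177) and that of Il13 11.6 times (3.58 to 59.9), and by reads the ratio of Il4 to Il5 was 9.67 (3.00 to 49.6). Csf2, Il21 and Il3 were among the genes listed at 0. The glycolytic gene Eno1, which nearly all cells use, is also listed at 0, so a 0 in this table says only how a gene is listed. Gapdh, another such gene, had an RPKM of 0.781 from 20 reads, so low values above 0 and values short of an RPKM of 1 call for the same caution.

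Il4 and Il13 lie next to each other on chromosome 11, between Kif3a and Rad50, and Il5 lies beyond Rad50. Rad50, a DNA repair gene whose introns hold the locus control region of the type 2 cytokines, had an RPKM of 0.994 (0.808 to 1.21) from 99 reads. Kif3a, a kinesin motor gene, had 1.81 (1.55 to 2.11). Per length Il4 stood at 3.30 times Rad50 (2.11 to 5.04), and Il13 at 1.12 times (0.700 to 1.72), within counting error of it. By reads both cytokine genes were below Rad50, at 0.293 and 0.273 of its reads. Irf1, an interferon regulatory factor gene further along the chromosome, was the highest of the region at 12.8 (11.8 to 14.0), and its reads, 548, are listed on each of a pair of rows.

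**Figure D2:**
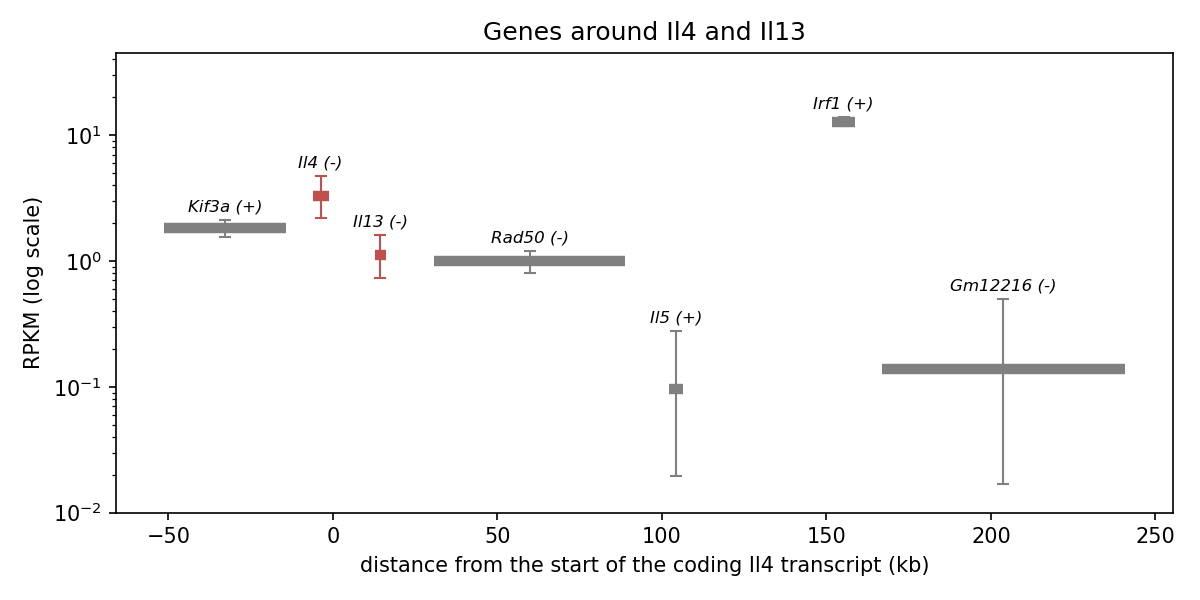
RPKM on a log axis of the genes around Il4 and Il13, drawn at their distance in kb from the start of the coding Il4 transcript; horizontal bars span each transcript, vertical bars are 95% Poisson intervals, and the sign gives the strand. Il4 at 3.28 and Il13 at 1.11 lie between Kif3a at 1.81 and Rad50 at 0.994, with Il5 lowest at 0.0954.

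Among 14 genes that act on the Il4 and Il13 genes or flank them, 9 were at an RPKM of at least 1. The share of all genes was 31.0%, and the median of the list was 1.34. The myeloid factor Cebpb led at 304, followed by Gata1 at 30.0, the lineage factor of eosinophils, then by the calcium-regulated factor Nfatc1 at 9.82 and by Gata2 at 5.75. Gata3, the factor that opens this locus in T helper and innate lymphoid cells, had 0.381 (0.230 to 0.596) from 19 reads. No gene of this list was listed at 0.

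The receptor chains differed by far more than counting error. Il2rg, the common gamma chain on chromosome X (101264387 to 101268206, minus strand), had 1722 reads, an RPKM of 55.3 (52.7 to 58.0) and an RPM of 224, and ranked 533 of all genes by RPKM. Il4ra, the interleukin-4 binding chain on chromosome 7 (125552282 to 125579474, plus strand), had 929 reads, an RPKM of 9.50 (8.90 to 10.1) and an RPM of 121. Il13ra1, on chromosome X from 36112139 to 36171261, plus strand, had 40 reads, an RPKM of 0.537 (0.383 to 0.731) and an RPM of 5.20. The partner chain of the type I receptor was therefore far above that of the type II receptor at the level of messenger RNA.

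Per length Il2rg stood at 103 times Il13ra1 (75.4 to 145) and Il4ra at 17.7 times (12.9 to 25.0). By reads these ratios were 43.1 (31.5 to 60.5) and 23.2 (16.9 to 32.7), so the order of the 3 chains held on both scales. Il2rg itself was 5.82 times Il4ra per length (5.37 to 6.31) and 1.85 times by reads (1.71 to 2.01), which of these 3 gaps depended most on length, for transcript models of 1670 and 5256 bases. Of the RPKM summed over the 3 chains, Il2rg held 84.6%, Il4ra 14.5% and Il13ra1 0.821%. Of their reads, the shares were 64.0%, 34.5% and 1.49%.

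Il2rg is also a subunit of the receptors for several other interleukins. None of the 7 genes listed as its partner chains or as the interleukin-13 decoy receptor reached an RPKM of 1, against 31.0% of all genes. The median of these 7 listed genes was 0.0953. The highest was Il15ra at 0.584 (0.302 to 1.02), followed by Il7r at 0.524, Il21r at 0.137 and Il2ra at 0.0953. Per length Il2rg stood at 94.7 times Il15ra (54.1 to 184) and 106 times Il7r (75.6 to 152). By reads these ratios were 143.5 (81.9 to 278) and 49.2 (35.2 to 70.9). Il9r and the decoy receptor gene Il13ra2 were listed at 0. Among the chains that pair with the common gamma chain in these lists, Il4ra had the highest value.

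The Janus kinases that these chains bind were also uneven. Jak1, which sits on the interleukin-4 receptor alpha chain, had an RPKM of 121 (119 to 124) from 10703 reads. Jak2 had 34.4 (33.1 to 35.7). Jak3, the kinase of the common gamma chain, had 1.61 (1.35 to 1.90), and Tyk2, the kinase bound by the Il13ra1 chain, 0.854 (0.673 to 1.07). The RPKM of Jak1 was 75.4 times that of Jak3 (63.7 to 89.8) and 142 times that of Tyk2 (113 to 180). Il2rg, the highest receptor chain, stood at 34.4 times its own kinase Jak3 per length (28.9 to 41.2) and 12.5 times by reads (10.5 to 15.0).

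Stat6, the transcription factor of both receptors, had an RPKM of 8.97 (8.34 to 9.63), and the ratio of Il4ra to Stat6 was 1.06 (0.962 to 1.17). By reads it was 1.22 (1.11 to 1.35) and by summed reads over the GENCODE M21 length 0.879 (0.798 to 0.969), so the order of the pair changed with the scale. Of 20 transducer genes, 17 were at an RPKM of at least 1, beside 31.0% of all genes, and the median of the list was 6.12. The adaptor Grb2 had 38.4 and the phosphatase Ptpn6 26.7. Irs2 and Irs1, insulin receptor substrates that interleukin-4 receptors also engage, had 2.01 and 0.0615, values named after they were seen.

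**Figure D3:**
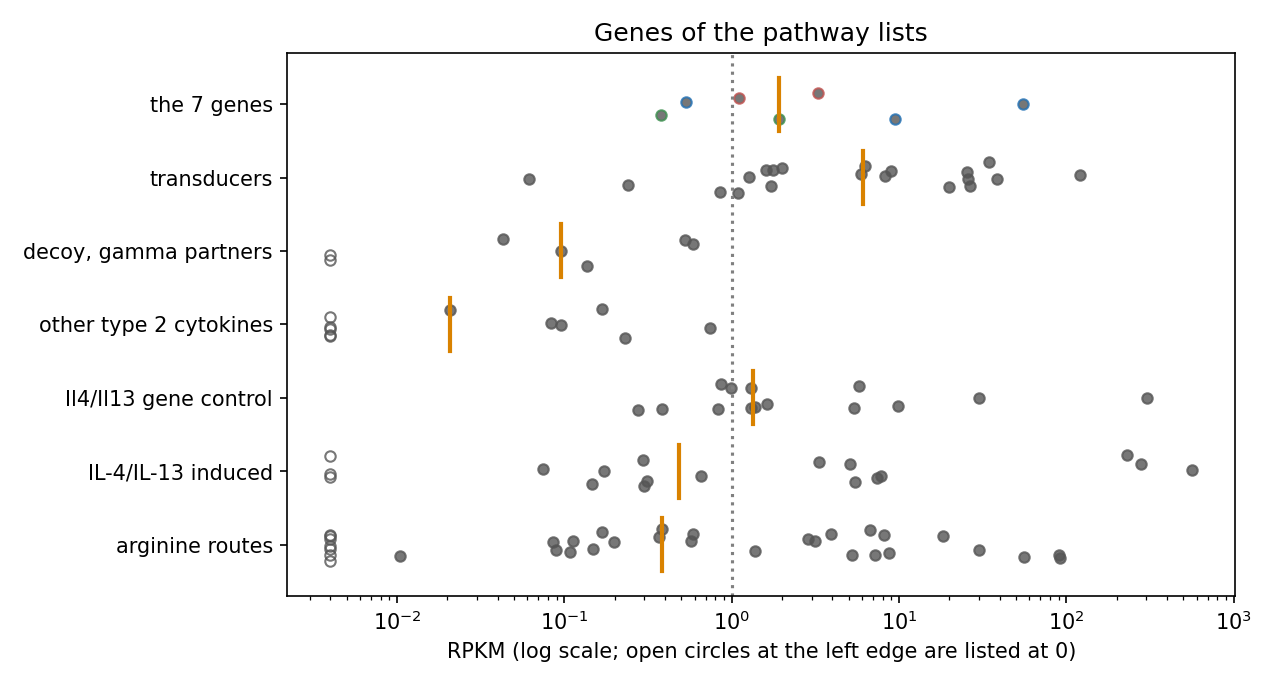
RPKM on a log axis of the 7 genes and of each gene of the 6 pathway lists; the orange line is the median, the dotted line an RPKM of 1, and open circles are genes listed at 0. The transducers have a median of 6.12. The genes of the list of other type 2 cytokines, which also holds Il6 and Il10, lie below 1. So do those of the list of the decoy receptor and other partner chains of Il2rg.

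Of the arginases, Arg1 had the middle level of the 7 genes and Arg2 the lowest. Arg1, on chromosome 10 (24915207 to 24927470, minus strand), had 38 reads, an RPKM of 1.92 (1.36 to 2.64) and an RPM of 4.94 (3.50 to 6.78). Arg2, on chromosome 12 (79130788 to 79156301, plus strand), had 6 reads, an RPKM of 0.379 (0.139 to 0.824) and an RPM of 0.780 (0.286 to 1.70). Arg1 stood at 5.08 times Arg2 per length (2.13 to 14.7) and 6.33 times by reads (2.66 to 18.3). The 3′ end of Arg2 overlaps that of Vti1b, a gene on the other strand with 99 reads, over 285 bases, and whether reads were counted by strand is not stated, so reads of the 2 genes cannot be told apart there.

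Of 33 measured genes for the import of arginine and its use, 14 reached an RPKM of 1, beside 31.0% of all genes. Of the 33, 7 were listed at 0, and the median was 0.384. Sat1, which acetylates polyamines for export, led at 91.6, followed by the transporter heavy chain Slc3a2 at 90.3, the ornithine decarboxylase antizyme Oaz1 at 56.2 and the ornithine aminotransferase Oat at 29.9. Oat, which turns ornithine toward proline and glutamate, stood at 15.6 times Arg1 (11.3 to 22.1). Odc1, which turns it into the polyamine putrescine, had 7.16 (6.40 to 7.99), or 3.73 times Arg1 (2.66 to 5.36). By reads these ratios were 28.0 and 8.42, and by summed reads over the GENCODE M21 length 19.2 and 5.63.

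Nos2, the inducible nitric oxide synthase that competes with arginase for arginine, had an RPKM of 0.0892 (0.0289 to 0.208) from 5 reads. Arg1 stood at 21.6 times Nos2 per length (8.47 to 70.2) and 7.60 times by reads (2.99 to 24.7). Of the cationic amino acid transporters, Slc7a1 had 8.69 (8.16 to 9.25), named after its value was seen, and Slc7a2, which is induced with Arg1 in macrophages, had 0.0105 from 1 read. Ass1, which rebuilds arginine from citrulline, was listed at 0 together with Azin2 and Nos1 among others.

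Genes known to be induced by interleukin-4 or interleukin-13 in myeloid cells ranged widely in level. Of 18, 8 reached an RPKM of 1, beside 31.0% of all genes, and 3 were listed at 0 (Ccl24, Clec10a and Fcer2a). The median of the 18 was 0.485. Of the 18, 3 also stand in cell type lists: Alox15 as an eosinophil gene, Mrc1 as a macrophage gene and Cdh1, at 5.09, as a gene of colon epithelium. The transglutaminase Tgm2 had 564, Retnla, a resistin-like protein of alternatively activated macrophages, 278, the 12/15-lipoxygenase Alox15 230 and Klf4 7.77. Chil3, a chitinase-like protein of the same macrophages, had 0.657 (0.407 to 1.00) from 21 reads. The mannose receptor gene Mrc1, at 0.172, and the chemokine gene Ccl17, at 0.0747 from 1 read, were also under 1, and were named after their values were seen. Arg1, at 1.92, stood below the 8 genes that reached 1 and above the other 10.

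In the order of RPKM, from Il2rg to Il4ra, Il4, Arg1, Il13, Il13ra1 and Arg2, the intervals of Il2rg and Il4ra overlapped with no other gene. The intervals of each later pair of neighbours overlapped, but such overlap does not show that 2 genes are alike. By RPKM the ratio was 1.71 for Il4 to Arg1 (1.02 to 2.84) and 2.065 for Il13 to Il13ra1 (1.22 to 3.45). With summed reads over the GENCODE M21 length, the order was the same, and the ratio was 1.86 for Il4 to Arg1 (1.11 to 3.10) and 2.08 for Il13 to Il13ra1 (1.23 to 3.47). Arg1 and Il13 were not set apart on that scale, at 1.15 (0.683 to 1.96), against 1.73 (1.03 to 2.95) by RPKM. Il13ra1 to Arg2 was 2.56 (1.08 to 7.40) on that scale and 1.42 (0.597 to 4.09) by RPKM, so whether they differ depends on the scale. By reads, Il13ra1 at 40, Arg1 at 38, Il4 at 29 and Il13 at 27 had no order beyond counting error, and Arg2 alone lay below them. In the table as a whole, Il2rg stood in the top 2.27% of genes by RPKM, Il4ra in the top 9.20% and Il4 in the top 18.0%. Arg1, Il13, Il13ra1 and Arg2 followed at 23.5%, 29.8%, 38.5% and 42.5%. With 1 value per gene, likeness of pattern to other genes could not be measured.

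**Figure D4:**
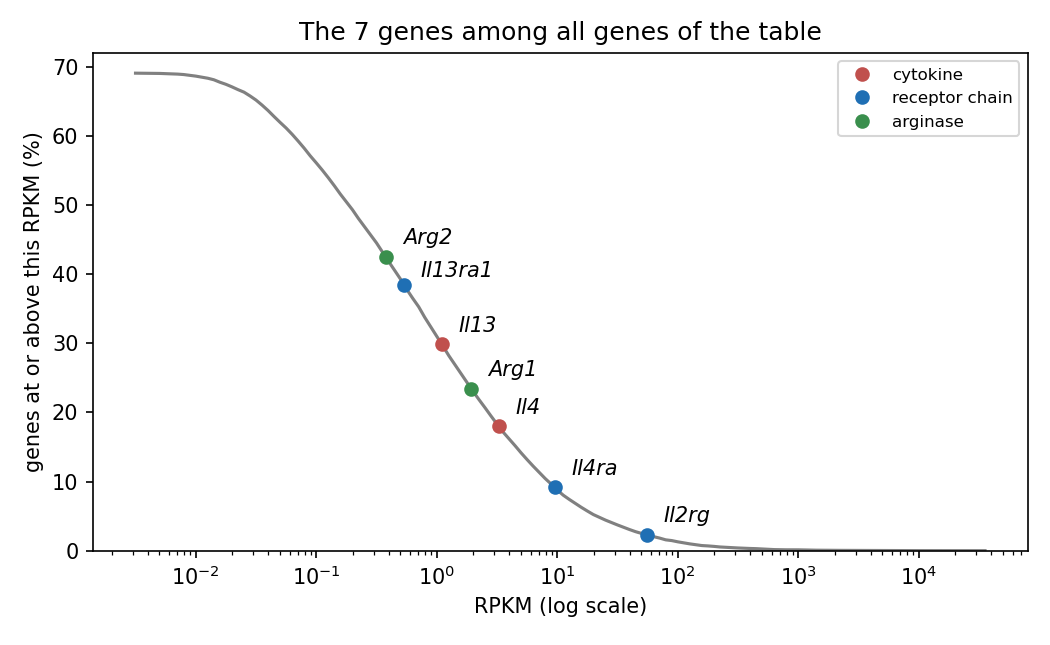
Percent of all 23456 genes at or above a given RPKM (grey line, log axis), with the 7 genes placed on it at their own RPKM and rank. Il2rg lies in the top 2.27% of genes and Arg2 at 42.5%.

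None of the 7 genes shared a word of 35 bases in the last 500 bases of its transcript with an annotated transcript of another gene read in the same direction, which leaves out the antisense overlap of Arg2 with Vti1b. The sorted samples held markers of eosinophils, of which 9 of 10 were above an RPKM of 1, and their median stood at 75.0, led by Alox15 at 230, which is also in the list of induced genes, and the eotaxin receptor gene Ccr3 at 155. The marker below 1 was the eosinophil peroxidase gene Epx at 0.265 (0.132 to 0.474) from 11 reads, named after its value was seen. They also held RNA of genes that mark other cells, some of which can express members of the 7. Of all genes, 31.0% reached an RPKM of 1. A count beside that share does not tell whether the cells of a list were present or absent. Of mast cell and basophil genes, which mark other sources of interleukin-4 and interleukin-13, 2 of 13 reached 1, with a summed RPKM of 4.55. These were the mucosal mast cell proteases Mcpt1 at 2.47 and Mcpt2 at 1.14. Listed at 0 were 6 of the 13, among them the high-affinity IgE receptor genes Fcer1a and Ms4a2. Of T cell and innate lymphoid genes, 5 of 14 reached 1, with a sum of 15.6. These were Klrg1 at 8.04, Icos at 1.57, Cd4 at 1.56, Cd3e at 1.44 and Cd3g at 1.06, and Rora and Cd27 were listed at 0. The part of these cells in the reads of Il4, Il13 and Il2rg was not tested.

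The counts that follow also stand beside the 31.0% of all genes that reached an RPKM of 1. Macrophage and monocyte genes, whose cells can express Il4ra and Arg1, reached 1 for 6 of 12, with a sum of 154. They were led by Apoe at 54.3 and Csf1r at 41.0, followed by C1qb at 37.9 and C1qc at 10.7, and Mertk alone was listed at 0. Colon epithelium genes reached 1 for all 14, with a sum of 401, led by Epcam at 89.3 and Krt19 at 66.7. Stromal genes reached 1 for 8 of 12, with a sum of 197, led by Col3a1 at 66.7 and Col1a2 at 35.2. Epithelium and stroma are known to carry the type II receptor. The median was 28.3 for the epithelial list and 7.82 for the stromal list. Neutrophil genes reached 1 for 2 of 10, with a sum of 36.3, led by S100a9 at 23.9 and S100a8 at 10.2. B and plasma cell genes did so for 4 of 9, with a sum of 49.8, led by Jchain at 44.1 and Mzb1 at 1.83. The value of Mzb1 is uncertain, as 99.8% of its searched words also occur in another gene. The part of these cells in the values of the receptor chains and arginases was not tested.

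**Figure D5:**
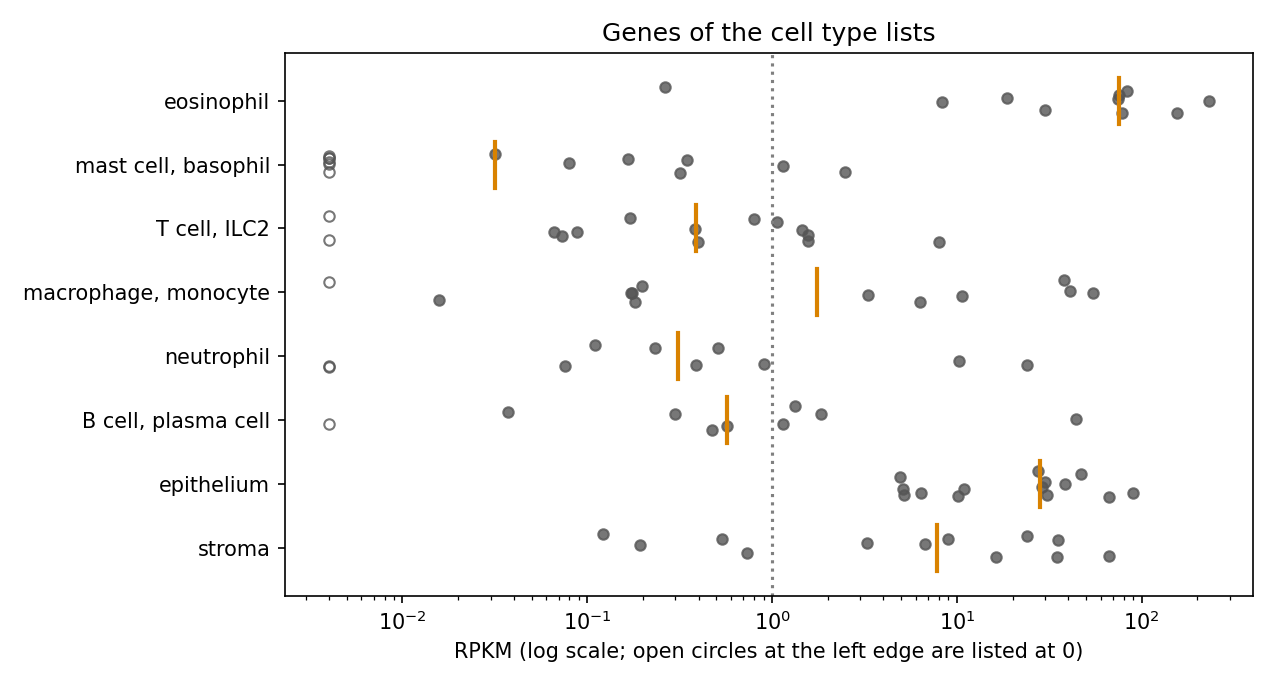
RPKM on a log axis of each gene of the 8 cell type lists; the orange line is the median, the dotted line an RPKM of 1, and open circles are genes listed at 0. Eosinophil genes have the highest median, 75.0, followed by epithelium at 28.3, and mast cell and basophil genes have the lowest.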

How the data were processed

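Messenger RNA of 2 samples of sorted colonic eosinophils was sequenced by CEL-Seq, with 3 technical libraries each. The submitters' processing notes name STAR 2.4.2a, DESeq and mm10; how reads were counted, whether by strand, on which annotation and with which lengths is not given in the sources used here. Both value columns of the deposited table hold single values for the group. RPKM was computed by the authors, per the file headers. The read total deposited by the authors is a mean: 100% of the values times 6 are whole within 0.0001, so they were multiplied by 6 to give reads over the 6 libraries. Columns of other samples numbered 0.

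Symbols were updated through RefSeq accessions for 30730 of 31295 rows, and each gene was represented by its transcript with the most reads; equal totals went to the higher RPKM. Intervals are exact 95% Poisson intervals, and intervals of ratios are exact binomial (Clopper-Pearson) intervals of the reads carried to RPKM. The labels name no molecular identifiers, so amplified copies count as separate reads. Pycr3 and Ly6g were not matched. Coordinates are those of the table, in mm10; exons and transcripts are from GENCODE M21 and promoters from RefSeq, both on GRCm38.

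The members and the 6 pathway and 8 cell type lists were chosen with earlier results of these data known. Named are all 7 members, the 4 highest genes of each pathway list and up to 3 of its genes listed at 0. Some genes set by name and the 2 highest of each cell type list are also named. Any further genes of the cell type lists, among them those listed at 0, were named after their values were seen. So were others where the text says so. Some were described for their place beside the members (Kif3a, Rad50, Irf1, Vti1b, Eno1, Gapdh). The 2 samples form 1 group, so no test between groups was made. Values were computed in Python 3.11.15 (pandas 2.3.3, numpy 2.4.6, scipy 1.17.1) and drawn with matplotlib 3.10.9. The intervals were run on simulated Poisson counts without amplified copies or spread between libraries. That run checks the computation only and not whether the intervals are wide enough for these data.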

Additional observations from a re-analysis of the deposited data

How the results depend on the processing

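Without transcript length, as RPM, the levels were 3.51 for Il13, 121 for Il4ra, 5.20 for Il13ra1, 224 for Il2rg and 4.94 for Arg1, all outside their RPKM intervals, as a change of unit gives; Il4 at 3.77 and Arg2 at 0.780 stayed within theirs. RPKM rescaled to a sum of 1000000 over genes raised each value by 1 factor, to 13.8 for Il4, 4.66 for Il13, 40.0 for Il4ra, 2.26 for Il13ra1, 233 for Il2rg, 8.09 for Arg1 and 1.59 for Arg2, with no change of order. At a minimum RPKM of 5, 2 of the 7 genes remained, as did 14.2% of all genes. Of 103 different genes in the pathway lists 48 reached an RPKM of 1 and 86 were above 0, and of 94 in the cell type lists 50 and 82 did so. Of all genes, 31.0% and 69.1% did so. At an RPM of 1 in place of an RPKM of 1, 7 list counts changed by more than 1.5 times or rose from 0. They were partner chains (0 to 3), type 2 cytokines (0 to 1), locus control (9 to 14), mast cell and basophil (2 to 4), T cell and innate lymphoid (5 to 8), macrophage (6 to 10) and neutrophil (2 to 6). Of all genes, 50.9% reached that RPM. Keeping the row with the highest RPKM changed none of the 7 levels. Leaving out genes with 50% or more shared words, an alternative chosen after seeing the data, left the counts within 1.5 times. By reads without length the ratios of Il4 to Arg1, Il13 to Il13ra1 and Il4 to Il13ra1 turned to 0.763, 0.675 and 0.725. Summed reads over the GENCODE M21 length, also chosen after seeing the data, turned none of the 11 ratios computed between the 7 genes. Leaving out a sample was not run, since the table holds 1 value for the group. No paired analysis was possible because the series has 1 group, with 1 value per gene for it. Depth limits Arg2 most, with 6 reads over the 6 libraries.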
